A study of Mus musculus with 4 samples.

Results

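The interferon-stimulated genes examined here were 35 genes, taken by symbol from the 45802 gene symbols of the deposited expression table. All 35 symbols were listed, and 33 had a value in each of the 4 libraries. *Mx1* and *Mx2*, of the family of antiviral dynamin-like GTPases, had no value in any library, and GENCODE lists *Mx2* as a polymorphic pseudogene. The study compared PDGFRα reporter+ with PDGFRα reporter− periosteal cells, 2 libraries each, to define how these subpopulations of the outer covering of bone differ. The cells came from male mice 9 to 10 weeks old that carry CreER under the *Pdgfra* promoter and the mT/mG reporter and were taken 14 days after tamoxifen, given in 5 daily doses of 150 mg/kg. All libraries share this genotype and tamoxifen, and the populations differ in the reporter, since recombined cells (reporter+) carry membrane GFP and the others (reporter−) membrane tdTomato. Cells pooled from 3 to 6 mice per the labels (the methods give another range) were cultured for 1 passage in 10 ng/mL basic FGF, and CD31, CD45 and Ter119 positive cells were removed by sorting. The reporter marks past promoter activity and not the present level of PDGFRα, and the cells are a passaged culture rather than fresh tissue.

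Interferon-stimulated genes are switched on when type I, II or III interferons bind their receptors and Janus kinases phosphorylate STAT proteins. A complex that holds STAT2 and IRF9 binds the interferon-stimulated response element, whereas signaling from interferon γ acts mainly through the gamma-activated site. The products include sensors of viral RNA, enzymes that degrade it, inhibitors of translation and parts of the antigen processing machinery. Many cells keep a low basal level of these genes, which can also be raised by nucleic acids from within the cell.

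Values are log2 expression values that the authors had quantile normalized, so that all 4 libraries share the same distribution, and their linear unit and the sequencing depth are unknown. Levels are therefore compared between libraries and not between genes. The column headings number the libraries of each population 2 and 3, the sample titles number them 1 and 2, and the libraries are named here by population and heading number. What the heading number stands for is not given. A value in every library, which the tests required, was held by 14415 of the 16742 genes with any value. The defining genes of stromal cells were present in every library, with *Pdgfra* between 7.44 and 7.87 and *Col1a1* between 7.44 and 7.85 on the log2 scale.

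Upstream sequences are shown for 5 members. *Isg15*, *Ifit1* and *Ifit3* had the widest gaps between reporter+ library 2 and the next library among members whose mean was not under 0. The others are *Bst2*, which had matches to both motifs, and *Irf1*, which varied little. The sequences are from the RefSeq promoter table on GRCm38.p6, end before the annotated gene start and are written along the strand of the gene. Capitals mark the core of the interferon-stimulated response element, which is GAAA, any 2 bases and GAAA, searched on both strands (TTTC, any 2 bases and TTTC on the other). They also mark the core of the gamma-activated site, TTC, any 3 bases and GAA, which has the same form on both strands. The stretches are chr4:156200819-156201068 on the minus strand for *Isg15*, chr19:34640639-34640870 on the plus strand for *Ifit1*, chr19:34583279-34583528 on the plus strand for *Ifit3*, chr8:71537473-71537722 on the minus strand for *Bst2* and chr11:53769764-53770013 on the plus strand for *Irf1*.
Isg15: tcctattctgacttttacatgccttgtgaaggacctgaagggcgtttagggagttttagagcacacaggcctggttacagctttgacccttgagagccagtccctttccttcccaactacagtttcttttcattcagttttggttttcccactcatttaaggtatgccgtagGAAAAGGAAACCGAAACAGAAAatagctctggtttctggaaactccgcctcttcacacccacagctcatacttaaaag
Ifit1: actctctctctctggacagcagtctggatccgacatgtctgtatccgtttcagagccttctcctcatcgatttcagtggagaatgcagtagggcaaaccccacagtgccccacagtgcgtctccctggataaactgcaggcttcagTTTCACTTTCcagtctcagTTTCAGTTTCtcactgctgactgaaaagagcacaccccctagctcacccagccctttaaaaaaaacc
Ifit3: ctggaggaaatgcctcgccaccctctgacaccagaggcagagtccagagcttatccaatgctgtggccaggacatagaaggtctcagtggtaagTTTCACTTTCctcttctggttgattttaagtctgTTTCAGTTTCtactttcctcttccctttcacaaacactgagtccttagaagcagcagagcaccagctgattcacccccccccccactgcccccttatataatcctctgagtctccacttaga
Bst2: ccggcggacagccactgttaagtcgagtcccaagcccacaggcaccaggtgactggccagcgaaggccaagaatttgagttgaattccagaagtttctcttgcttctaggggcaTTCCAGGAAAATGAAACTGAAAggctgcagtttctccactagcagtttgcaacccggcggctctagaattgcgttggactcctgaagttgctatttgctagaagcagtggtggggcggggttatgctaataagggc
Irf1: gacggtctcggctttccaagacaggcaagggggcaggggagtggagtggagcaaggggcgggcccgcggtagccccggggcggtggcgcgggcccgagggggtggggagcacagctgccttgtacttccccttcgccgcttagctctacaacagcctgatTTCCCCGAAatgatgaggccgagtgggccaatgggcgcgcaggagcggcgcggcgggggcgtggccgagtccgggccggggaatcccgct
*Isg15* had 3 overlapping matches to the response element core, the nearest of which began 66 bases upstream of the RefSeq start. *Ifit1* had 2 matches, beginning 104 and 85 bases upstream, and *Ifit3* had 2, at 156 and 122 bases. In *Bst2*, 2 overlapping matches to the response element core began 130 and 124 bases upstream, and the match to the gamma-activated core, 136 bases upstream, overlapped the former. *Irf1* had no match to the response element core in this window and 1 match to the gamma-activated core, 90 bases upstream. Promoters were listed for 27 of the 35 members. The 250 bases upstream of the start held the response element core in 10 of these 27 (37%), compared with 3.46% of the 27025 genes in the table. The 10 were *Bst2*, *Gbp2*, *Gbp3*, *Ifit1*, *Ifit3*, *Isg15*, *Oas1a*, *Oas3*, *Rsad2* and *Stat2*. The same bases held the gamma-activated core in 6 of 27 (22.2%), compared with 8.13% of the genes. These 6 were *Bst2*, *Eif2ak2*, *Ifit2*, *Irf1*, *Oas1a* and *Psmb8*. *Ifit2*, *Irf7*, *Irf9*, *Ifi44*, *Ddx58*, *Ifih1* and *Xaf1* had no match to the response element core. All of them were nonetheless highest in reporter+ library 2 and lowest in reporter+ library 3. A match describes the letters alone, and genes with more than 1 annotated start were counted once when any of their windows matched. *Parp9*, *Parp14*, *Rtp4*, *Dhx58*, *Usp18*, *Oas2*, *Mx1* and *Mx2* were not in the promoter table.

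The reporter+ libraries stood at opposite ends for most members. PDGFRα reporter+ library 2 had the highest value of the 4 libraries for 30 of the 33 members, compared with 22.2% of all genes tested. PDGFRα reporter+ library 3, of the same population, had the lowest value for 24 members, compared with 26.1% of all genes. Both held together for 24 members, compared with 11.5% of all genes. For 10 members library 2 lay more than 1 log2 unit above the next library, which was so for 0.721% of all genes. The median of the members in this library minus the mean of the other 3 was 0.96 log2 units, compared with −0.02 over all genes. Summed on the linear scale, the members amounted to 159 in PDGFRα reporter+ library 2, 71.7 in PDGFRα reporter+ library 3, 101 in PDGFRα reporter− library 2 and 89.1 in PDGFRα reporter− library 3. These sums are in the unstated linear unit and are set by the members with high values.

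**Figure D1:**
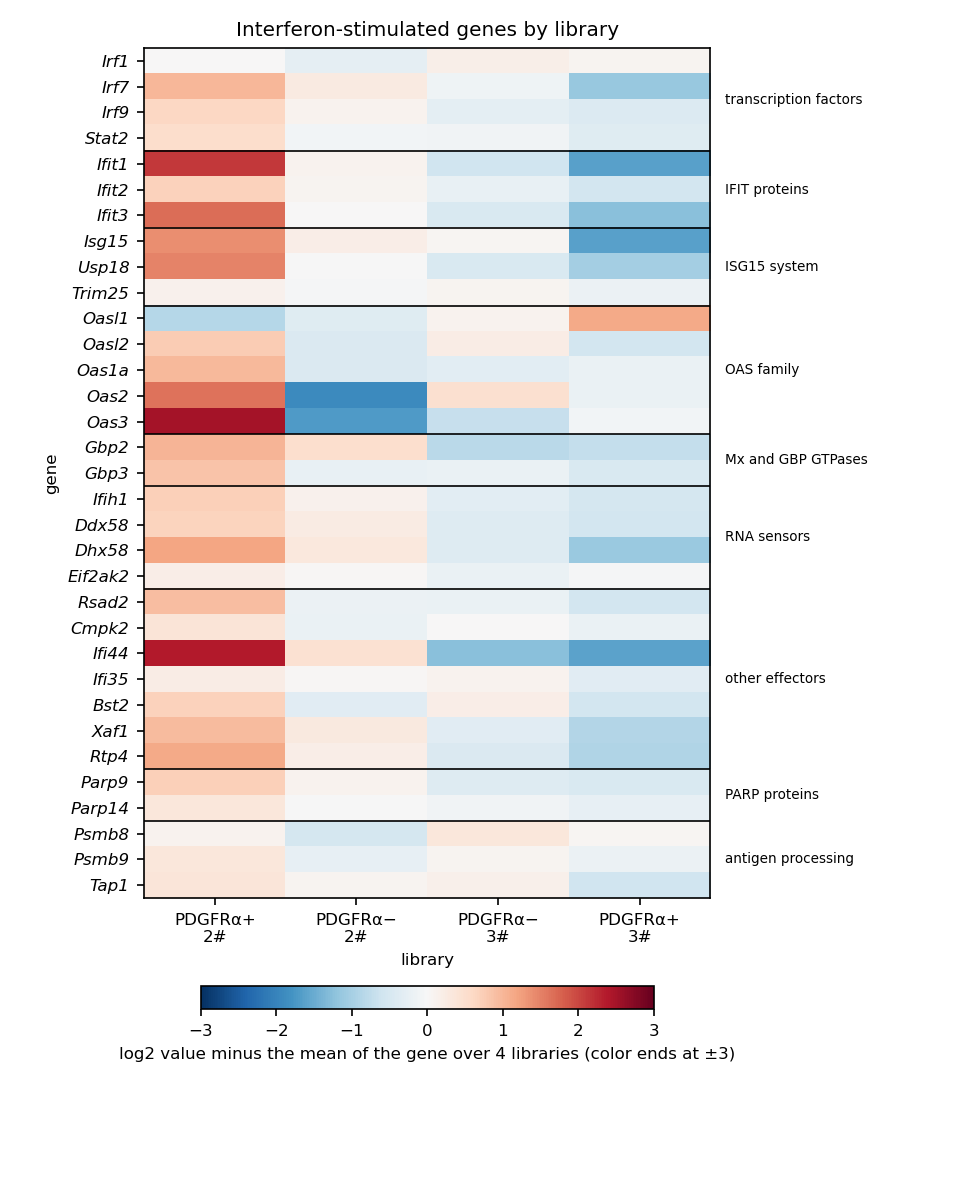
Heat map of the 33 interferon-stimulated genes with a value in all 4 libraries (rows, grouped by role) in each library (columns); color is the log2 value minus the mean of that gene over the 4 libraries. The left column, PDGFRα reporter+ library 2, is the highest for 30 genes, and the right column, PDGFRα reporter+ library 3, is the lowest for 24.

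The IFIT proteins bind viral RNA and hinder its translation, and their genes lie together on chromosome 19. *Ifit1* (chromosome 19, 34640871 to 34650009) had log2 values of 2.53 and −1.23 in PDGFRα reporter+ libraries 2 and 3 and of 0.49 and −0.19 in PDGFRα reporter− libraries 2 and 3. The reporter− values thus lay between the reporter+ values, which were 13.6-fold apart, compared with 1.61-fold between the reporter− libraries. *Ifit3* (chromosome 19, 34583531 to 34588731) had 2.49 and −0.43 in the reporter+ and 0.83 and 0.35 in the reporter− libraries, with the same order. *Ifit2* had 1.05 and −0.20 and 0.44 and 0.12, again in this order and within a narrower range. Reads of *Ifit3* may be shared with its close copy *Ifit3b*, whose values were 1.08 and −1.84 in the reporter+ and −0.68 and −2.12 in the reporter− libraries, so the values of both are uncertain.

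ISG15 is a ubiquitin-like protein that is attached to other proteins, USP18 removes it and restrains the interferon receptor, and TRIM25 is a ubiquitin ligase that acts with the RNA sensor RIG-I. *Isg15* (chromosome 4, 156199424 to 156200818) had 2.00 and −1.02 in the reporter+ libraries and 0.80 and 0.68 in the reporter− libraries. The reporter+ libraries were 8.10-fold apart and enclosed the reporter− libraries, which were 1.09-fold apart. *Usp18* had 1.26 and −1.24 in the reporter+ and −0.24 and −0.68 in the reporter− libraries. *Trim25* had a narrower range, from 1.93 to 2.26, and was likewise highest in reporter+ library 2 and lowest in reporter+ library 3.

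**Figure D2:**
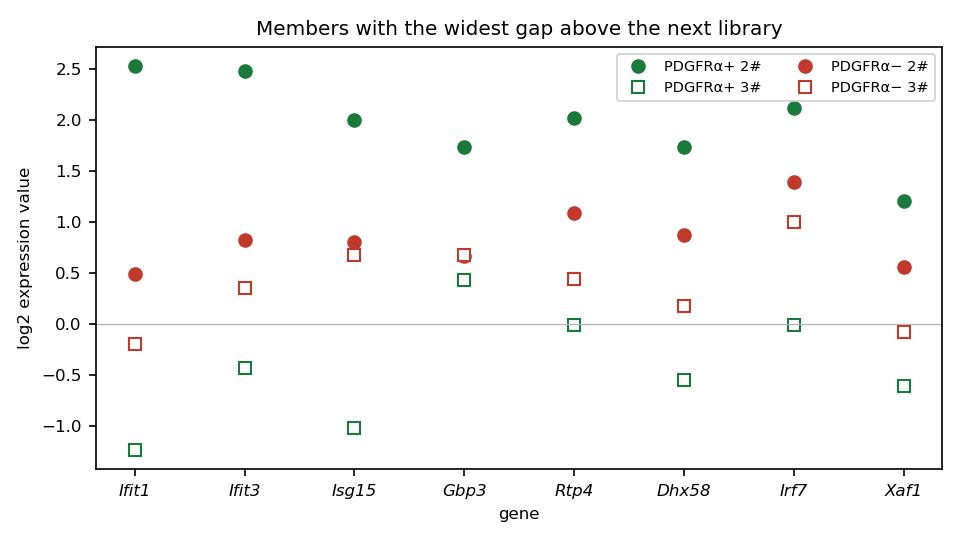
Log2 expression values (vertical axis) of the 8 members with a mean of at least 0 that had the widest gap between PDGFRα reporter+ library 2 and the next library; green is reporter+, red is reporter−, filled circles are number 2 and open squares number 3. The choice of genes by this gap places the filled green circle uppermost, and the open green square is lowest for each gene. Gaps to the next library run from 2.04 for Ifit1 to 0.65 for Xaf1.

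Of the transcription factors, *Irf7*, the main amplifier of type I interferon, had 2.12 and −0.01 in the reporter+ and 1.39 and 1.00 in the reporter− libraries. *Irf9* and *Stat2*, which encode parts of the complex that drives most of these genes, varied less. *Irf9* had 3.49 and 2.45 in the reporter+ and 2.98 and 2.57 in the reporter− libraries. *Stat2* had 2.91 and 2.01 and 2.30 and 2.27, so that the reporter− libraries were nearly equal. *Irf1*, a factor induced strongly by interferon γ, departed from this order, with 2.92 and 2.99 in the reporter+ and 2.63 and 3.09 in the reporter− libraries. *Irf9* overlaps *Rnf31* on the same strand and *Irf7* overlaps *Phrf1* on the opposite strand, so that reads may be shared.

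Of the 4 sensors of double-stranded RNA, 3 followed the order of the IFIT genes. *Ddx58*, which encodes RIG-I, had 3.17 and 1.95 in the reporter+ and 2.74 and 2.12 in the reporter− libraries. *Ifih1*, which encodes MDA5, had 1.10 and −0.16 and 0.52 and 0.06. *Dhx58*, which encodes the related LGP2, had 1.74 and −0.54 and 0.88 and 0.18. All 3 were highest in reporter+ library 2 and lowest in reporter+ library 3. *Eif2ak2*, which encodes the translation-blocking kinase PKR, stayed between 2.47 and 2.87 and was lowest in reporter− library 3.

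The OAS enzymes make the oligoadenylates that activate RNase L, and their genes were at low values here. *Oas3* had −3.47 and −6.06 in the reporter+ and −7.68 and −6.67 in the reporter− libraries. *Oas2* had −2.34 and −4.16 in the reporter+ and −5.86 and −3.49 in the reporter− libraries, and *Oas1a* −0.64 and −1.81 and −2.05 and −1.91. All of them were highest in reporter+ library 2 and, unlike the IFIT genes, lowest in reporter− library 2. The related *Oasl2* had 0.85 and −0.46 in the reporter+ and −0.35 and 0.30 in the reporter− libraries. *Oasl1*, a translational repressor of *Irf7*, had the opposite order, with −4.72 and −2.72 in the reporter+ and −4.22 and −3.76 in the reporter− libraries. Values near the bottom of the scale may rest on few reads, and their counting error is unknown. Reads of *Oas1a* may be shared with its tandem copies.

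Among the GTPases, *Gbp2* and *Gbp3* are guanylate-binding proteins that attack the vacuoles of intracellular pathogens. *Gbp2* had 4.43 and 2.69 in the reporter+ and 3.93 and 2.60 in the reporter− libraries, so that the number separated the libraries more than the population did. *Gbp3* had 1.74 in reporter+ library 2 and from 0.43 to 0.68 in the other libraries.

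Of the other effectors, *Ifi44* showed the widest range of the genes outside the OAS family, with 2.37 and −1.63 in the reporter+ and 0.45 and −1.26 in the reporter− libraries. *Rtp4*, a chaperone of chemosensory receptors with antiviral activity, had 2.02 and −0.01 and 1.09 and 0.44. *Xaf1*, a proapoptotic factor, had 1.21 and −0.60 and 0.56 and −0.07. These genes had the order of the IFIT genes. *Bst2*, which encodes tetherin and holds budding virions at the cell surface, had 3.88 and 2.62 in the reporter+ and 2.84 and 3.38 in the reporter− libraries. *Rsad2*, which encodes viperin, had −3.87 in reporter+ library 2 and from −5.34 to −4.99 in the others. Its neighbor *Cmpk2*, a mitochondrial nucleotide kinase, ranged from −1.94 to −1.35, and *Ifi35* from 2.18 to 2.74. *Cmpk2* and *Ifi35* were also highest in reporter+ library 2 and lowest in reporter+ library 3. *Rtp4* overlaps *Masp1* on the opposite strand in GENCODE M21, and whether strand was used in counting is not given in the sources used here.

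*Parp9*, which acts with its partner *Dtx3l* in interferon signaling, had 2.63 and 1.45 in the reporter+ and 2.02 and 1.51 in the reporter− libraries. *Dtx3l*, which overlaps it on the opposite strand, had 2.51 and 1.21 and 1.95 and 1.47. *Parp14* ranged only from 0.69 in reporter+ library 3 to 1.27 in reporter+ library 2. The antigen processing genes, which lie side by side in the major histocompatibility locus, had no common order. *Tap1*, a subunit of the peptide transporter, had 2.73 and 1.78 in the reporter+ and 2.47 and 2.54 in the reporter− libraries. The immunoproteasome subunit *Psmb8* had 2.16 and 2.12 and 1.53 and 2.40, with the highest value in reporter− library 3. *Psmb9*, which overlaps *Tap1* on the opposite strand, ranged from −0.37 to 0.22.

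Between the populations, no member passed the test. In limma over all 14415 genes, 0 of the 33 members had an adjusted p under 0.05, as had 0% of all genes, and the adjusted p of every member was 1. An unadjusted p under 0.05 was found for 0 members and for 0.909% of all genes. The median log2 difference of the members, reporter+ minus reporter−, was 0.18, compared with −0.0035 over all genes, and 28 members were higher on the mean in reporter+ cells, compared with 49.1% of all genes. Leaving out PDGFRα reporter+ library 2 turned this median to −0.40, and leaving out library 3 of that population raised it to 0.86. Of *Ifit1*, the difference of 0.50 (SE 1.30) came from means of 0.65 ± 2.66 (SD, n = 2) and 0.15 ± 0.49 (SD, n = 2). *Oas3* had the largest difference of the members, 2.41 (SE 1.15), with means of −4.77 ± 1.83 and −7.17 ± 0.71. Both reporter+ libraries lay above both reporter− libraries for 2 members, *Oas1a* and *Oas3*, compared with 7.59% of all genes, and below them for 0 members, compared with 8.1% of all genes. The labels do not say whether the replicates were separate cultures, so that p-values measure only the spread between these libraries. In this fit, which has no block, that spread includes the difference between the heading numbers. The absence of calls therefore does not show that the populations are alike. With 2 libraries against 2 an exact two-sided permutation test of a single gene cannot give a p below 0.333.

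Within the heading numbers the populations differed in opposite directions. Among libraries numbered 2, 32 of the 33 members were higher in reporter+ cells, compared with 50.3% of all genes, with a median difference of 0.63 log2 units (0.0011 over all genes). Among libraries numbered 3, 28 members were lower in reporter+ cells, compared with 53% of all genes, with a median difference of −0.28 (−0.02 over all genes). The same 28 members were both higher in number 2 and lower in number 3, compared with 28.2% of all genes. *Oas1a*, *Oas3*, *Gbp2* and *Eif2ak2* were higher in reporter+ cells within both numbers, compared with 22.1% of all genes, and 0 members were lower within both, compared with 24.8%. *Oasl1* alone had the opposite directions, with −0.50 log2 units in number 2 and 1.04 in number 3, which was so for 24.9% of all genes. The difference of *Ifit1* was 2.04 in number 2 and −1.04 in number 3, that of *Isg15* 1.19 and −1.70, and that of *Ifit3* 1.66 and −0.79. With 1 library on each side these differences have no replicate, and the change between the numbers was not tested.

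**Figure D3:**
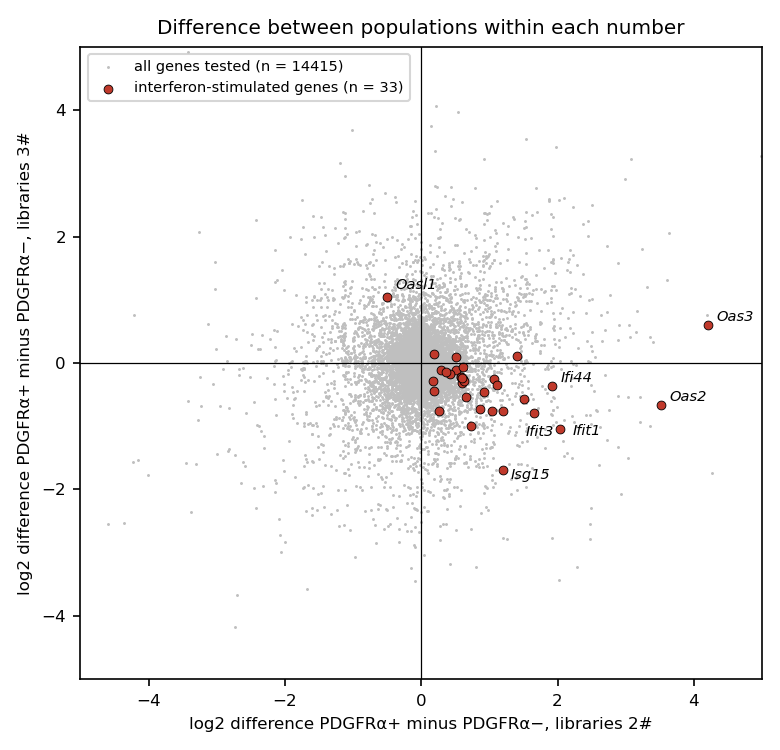
Log2 difference PDGFRα reporter+ minus reporter− among libraries numbered 2 (horizontal axis) and numbered 3 (vertical axis) for all 14415 genes tested (gray) and the 33 members (red); 3 genes lie outside the axes. Of the members, 28 lie in the lower right, higher in number 2 and lower in number 3, which holds 28.2% of all genes.

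Libraries numbered 3 were also compared with those numbered 2 across both populations, with population as a term in the model. Members were lower in number 3 by a median of 0.72 log2 units, compared with a median of 0.05 higher over all genes. With limma, 13 of the 33 members had an adjusted p under 0.05 and were lower, compared with 9.79% of all genes, and 0 were higher, compared with 11.5% of all genes. The 13 were *Gbp2*, *Ifi44*, *Ddx58*, *Rtp4*, *Parp9*, *Dhx58*, *Irf9*, *Xaf1*, *Ifit1*, *Ifit3*, *Irf7*, *Usp18* and *Ifih1*. *Gbp2* fell by 1.53 (SE 0.14, adjusted p = 0.000162) and *Dhx58* by 1.49 (SE 0.34, adjusted p = 0.0148). *Ifit1* fell by 2.22 (SE 0.56, adjusted p = 0.0226), *Ifit3* by 1.70 (SE 0.46, adjusted p = 0.0294) and *Rtp4* by 1.34 (SE 0.30, adjusted p = 0.0141). *Isg15* had a difference of −1.57 (SE 0.53) that did not pass (adjusted p = 0.0654), although both number 3 libraries lay below both number 2 libraries. Such separation downward was found for 19 members, compared with 28.8% of all genes, and upward for *Irf1* and *Oasl1*, compared with 36.4% of all genes. *Irf1* had a difference of 0.26 (SE 0.14, adjusted p = 0.232).

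No combination of population and number held a replicate library, so no spread between replicates entered the test of the numbers. Its error is how far the change between the numbers differed between the populations, moderated with the variances of other genes. The calls rest on variances moderated with a trend on the level of the genes. Without the trend, limma called 0 of the 33 members and 0 of all genes, beside 9 members and 3909 genes with an unadjusted p under 0.05. The fall was uneven between the populations, with a median of −1.26 log2 units over the members in reporter+ cells and of −0.08 in reporter− cells, compared with 0.05 in each over all genes. Number 3 was below number 2 for 31 members in reporter+ cells (46% of all genes) and for 19 in reporter− cells (45.6% of all genes). *Gbp2* fell by a like amount in both, by 1.74 and 1.32 log2 units, whereas *Isg15* had −3.02 in reporter+ and −0.13 in reporter− cells. *Ifit1* had −3.76 in reporter+ and −0.69 in reporter− cells, and *Ifit3* had −2.92 and −0.47.

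Interferon genes themselves were scarcely seen. Of 21 ligand genes, *Ifne* and *Ifnz* had a value in all libraries, from −4.95 to −1.67, *Ifna7* and *Ifnab* in 1 library each, and the other 17 in none, among them *Ifnb1* and *Ifng*. The receptors and transducers were present in all libraries, and 0 of 15 passed between populations. The receptor chains *Ifnar1* (3.23 to 3.55), *Ifnar2* (3.25 to 4.04), *Ifngr1* (3.65 to 4.70) and *Ifngr2* (3.49 to 3.95) did not share the order of the members, nor did *Jak1* (5.26 to 5.54) and *Jak2* (2.08 to 2.59). *Ifnlr1*, a receptor chain for interferon λ, ranged from −4.83 to −3.19, and *Il10rb*, its partner chain, from 3.09 to 3.38. Between the numbers, 2 of the 15 were lower in number 3 by the test (*Tyk2*, by 0.58, and *Socs3*, by 0.84) and 2 higher (*Ifnar2*, by 0.40, and *Ifngr1*, by 1.03), shares near those of all genes (9.79% lower and 11.5% higher). Reporter+ library 2 was the highest for 3 of the 15, compared with 22.2% of all genes. Of the 15 sensors and adaptors with a value in all libraries, 1 was lower in number 3 (*Ticam1*, by 0.55) and 0 were higher, and reporter+ library 2 was the highest for 4, against the same shares of all genes.

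A list of 74 other interferon-stimulated genes was drawn up by function, with earlier results of these data known. Of these genes, 69 had a value in all libraries. Reporter+ library 2 was the highest for 46 of the 69 (22.2% of all genes), and 41 were higher in reporter+ cells in number 2 and lower in number 3 (28.2% of all genes). The test between populations passed for 0 of them. Of the 69, 20 were lower (9.79% of all genes) and 4 higher (11.5% of all genes) in number 3. *Apol9b* fell by 3.19, *Apol9a* by 2.38 and *Herc6* by 1.83 log2 units, although reads may be shared between the *Apol9* copies. *Slfn5* rose by 2.11, *Gbp9* by 1.91 and *Iigp1* by 1.36, as did *Ifi47*, so that the list did not move as a whole. *Ifi47* and *Iigp1* encode GTPases known to respond to interferon γ. Both reporter+ libraries lay above both reporter− libraries for 2 of the 15 receptors and transducers, 3 of the 15 sensors and adaptors and 9 of these 69 genes, compared with 7.59% of all genes, and below them for 1, 0 and 0, compared with 8.1%. The populations did not overlap, at a mean of at least 0, for *Ptpn2*, *Nmi*, *Mnda*, *H2-K1*, *Il10rb*, *Lgals9*, *Tbk1* and *Jak1*, all with an adjusted p of 1 and differences between −0.15 and 0.42.

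**Figure D4:**
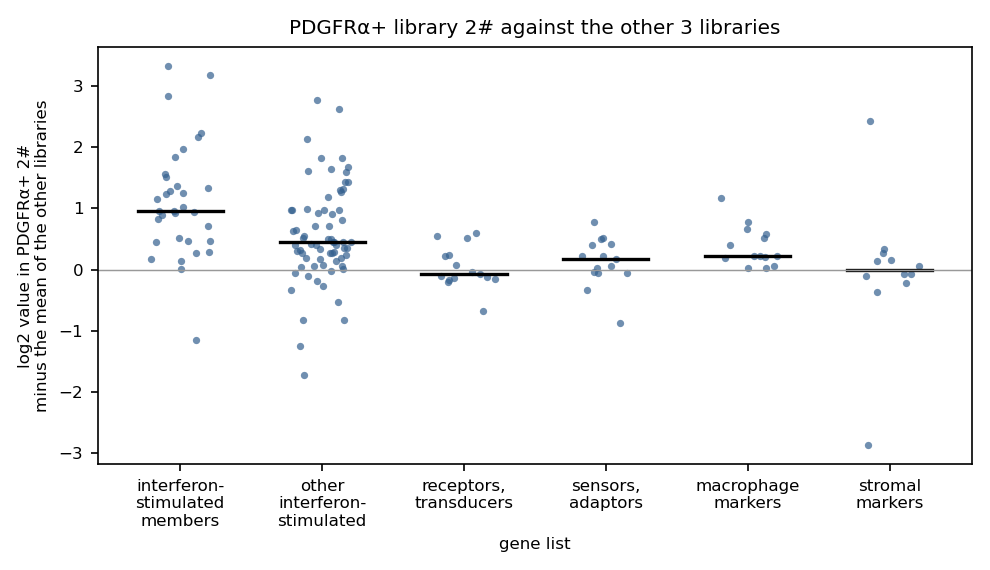
Log2 value in PDGFRα reporter+ library 2 minus the mean of the other 3 libraries (vertical axis) for each gene with a value in all libraries (points, spread sideways at random) in 6 lists (horizontal axis); black lines are medians. The medians are 0.96 for the members, 0.44 for the other interferon-stimulated genes and −0.07 for receptors and transducers. They are 0.17 for sensors and adaptors, 0.22 for macrophage markers and −0.01 for stromal markers.

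Markers of other cells were examined beside the members, since several interferon-stimulated genes are abundant in macrophages. Of 15 macrophage markers, 14 had a value in all libraries, and they summed on the linear scale to 258 and 301 in reporter+ libraries 2 and 3 and to 107 and 196 in reporter− libraries 2 and 3. *Lyz2* had 7.65 and 7.88 in the reporter+ and 6.27 and 7.25 in the reporter− libraries, and *Fcgr1* had no value in reporter− library 2. This sum, most of which was *Lyz2*, was highest in reporter+ library 3, in which 24 members were lowest, although 4 of the 14 markers were highest in reporter+ library 2. Their median difference between the populations was 1.20 in number 2 and 0.78 in number 3, without the change of direction seen for the members. Among them, *Ptprc*, which encodes the CD45 used for removal in the sort, had a value in all libraries. It was higher in reporter+ cells by 1.02 in number 2 and by 0.83 in number 3. Both reporter+ libraries lay above both reporter− libraries for 9 of the 14, compared with 7.59% of all genes. Between populations 0 passed the test, beside 5 with an unadjusted p under 0.05 in limma, compared with 0.909% of all genes. In number 3, 6 of the 14 were higher by the test and 0 lower, compared with 11.5% and 9.79% of all genes. Endothelial markers summed to 1.64 and 1.39 in reporter+ libraries 2 and 3 and to 3.13 and 4.07 in reporter− libraries 2 and 3. Of 7 dendritic cell markers, *Siglech* and *Flt3* were blank in every library and the other 5 were not. Summed levels were from 0.300 to 0.698 for dendritic cell, 0.0529 to 2.73 for neutrophil (the highest in reporter+ library 3, and at most 0.529 in the others), 0 to 0.0268 for B cell, 0.0721 to 0.185 for T cell, 0.0563 to 0.171 for erythroid and 1.04 to 2.46 for skeletal muscle markers. The part of any of these cells in the values of the members was not tested, and in bulk RNA fewer cells of a type and less RNA per cell cannot be told apart.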

How the data were processed

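Total RNA of 4 libraries was measured. Per the labels, stranded paired-end Illumina libraries were made, and the submitters' processing notes name bcl2fastq 2.17.1.14, Partek 7.0 and GRCm38.p6. The deposited values are log2 expression values, quantile normalized by the authors, with a blank where a gene had no value. The aligner, counting, annotation, filters and linear unit are not given in the sources used here, so that depth and counting error are unknown.

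The 14415 genes without a blank were fitted with limma 3.58.1 in R 4.3.3 (lmFit, eBayes with a trend, two-sided), with Benjamini-Hochberg adjustment over all of them and a threshold of 0.05. Reporter+ was compared with reporter− without a block, and number 3 with number 2 with population as a term. Summaries were made in Python 3.11.15 with pandas 2.3.3. The fit was tested on simulated data. Positions and overlaps are from GENCODE M21 (GRCm38) and promoters from RefSeq, matched by symbol.

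The members and lists were chosen with earlier results of these data known, so no test of a list was made. Each member is named, with its values or their range where it had any. Full statistics were planned for up to 6 members in each direction with the largest differences among those whose mean was not under 0 and whose groups do not overlap. No member met this between populations, and between numbers these were *Ifit1*, *Ifit3*, *Isg15*, *Gbp2*, *Dhx58*, *Rtp4* and *Irf1*. *Ifit1* and *Oas3* between populations were chosen after their values were seen. Other genes of the pathway were named by the same conditions or always (ligands, receptor chains and JAK genes), and *Apol9a*, *Apol9b*, *Slfn5*, *Gbp9*, *Iigp1*, *Ifi47*, *Herc6*, *Socs3*, *Ticam1*, *Dtx3l* and *Ifit3b* after their values were seen. A gene of the pathway that the rule named is not reported here. Alternatives were a pseudocount of 1 on the linear scale, a minimum mean log2 value of 0, blanks set to the lowest value, median centering, eBayes without a trend, leaving out each library, and the number as a block.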

Additional observations from a re-analysis of the deposited data

How the results depend on the processing

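Between populations, 0 members passed under every alternative run. With the number as a replicate block in limma, 29 of all genes passed but 0 members did. The members had a median difference of 0.18 and a smallest adjusted p of 0.763 in this fit. An unadjusted p under 0.05 was found there for 1 of the 33 members (*Oas3*), compared with 913 of all 14415 genes. Libraries with the same number deviated together from their population means (correlation 0.681 across genes, which are not replicates), but 2 pairs cannot show that they came from the same cells. Leaving out each library moved the median difference between populations over the range from −0.40 to 0.86, and 29 of the 33 members changed sign at least once. Such fits also carry part of the difference between the numbers. Members lower in number 3 by the test numbered 13 as reported (1411 of all 14415 genes) and 13 with median centering (1577 of 14415). With a minimum mean log2 value of 0 they numbered 11 of 24 (1066 of 10224 genes). They numbered 3 without the population term (1018 of 14415 genes) and 2 with a pseudocount of 1 (876 of 14415). With blanks set to the lowest value 1 member was lower (586 of 16742 genes), and without the trend 0 were (0 of all genes). With the pseudocount or with blanks filled, the share of the members was about that of all genes. Leaving out a library leaves no residual degree of freedom there, so that no calls were made, and the median ranged from −1.26 to −0.08. In settings chosen after seeing the data, reporter+ library 2 was highest for 30 of 33 members with centering and for 22 of 24 with a minimum mean of 0, compared with 21.2% of genes at that level. The depth, and so the error of low values such as those of the OAS genes, is unknown.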
